A study of Mus musculus with 66 samples.

Results

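The 39 Hox genes described here are all genes of the mouse expression tables whose symbol is Hox, a cluster letter from a to d and a number, out of 55487 genes in all. They were taken by symbol alone, with Ensembl identifiers matched to symbols, so the rule itself uses no measured value. RNA was sequenced from 7 libraries of the E14 line of mouse embryonic stem cells, as one arm of a study of G-quadruplexes (folded guanine-rich DNA or RNA), R-loops and the insulator protein CTCF. GDel1 (2 libraries) and GDel2 (2 libraries) share the genotype label Praf2 G4 Deletion, where G4 stands for G-quadruplex and Praf2 encodes a small membrane protein, and WT (3 libraries) is wildtype. All 7 were untreated and grew in serum with LIF, a GSK inhibitor and a MEK1/2 inhibitor, a mixture that holds embryonic stem cells in an undifferentiated state. Whether the 2 deletion groups are different clones, and whether replicates came from different cultures, is not stated in the labels, so p-values measure only the spread between these libraries, which may be technical. GDel1 and GDel2 were each compared with the same WT libraries. The series has 66 samples, and 59 of them (other assays and treatments) are not analysed here.

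Hox genes encode homeodomain transcription factors that give cells their position along the body from hindbrain to tail, and they lie in clusters named Hoxa, Hoxb, Hoxc and Hoxd. Genes with the same number in different clusters are paralogues, and low numbers act toward the head while high numbers act toward the tail and the limb tips. In undifferentiated embryonic stem cells the clusters are known to be held nearly silent by Polycomb complexes, and retinoic acid is known to open them starting with the low numbers. Hox proteins bind DNA together with TALE homeodomain partners of the Pbx, Meis and Pknox families.

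Depth was 12316853 to 18762704 expected counts per library. Mitochondrial transcripts took 9.91% and 4.83% of counts in GDel1, 6.19% and 9.60% in GDel2 and 6.30% to 6.89% in WT. Praf2 averaged 9.66 CPM (counts scaled to library size) in GDel1, 13.6 CPM in GDel2 and 28.9 CPM in WT, which checks the labels (log2 fold change -1.59 in GDel1, adjusted p = 0.00206, and -1.09 in GDel2, adjusted p = 2.01e-04, edgeR). All 8 embryonic stem cell markers listed were measured, with a summed TPM of 1425 to 2051 in GDel1, 1317 to 1630 in GDel2 and 1738 to 2057 in WT, and of these 8, 2 rose and 4 fell in GDel2, where 33.1% of all tested genes passed in either direction. TPM, a unit of transcripts scaled for gene length and library size, is used below to compare genes, whereas CPM scaled by the TMM method is used to compare groups. TPM moved the median of all genes in GDel1 by -0.30 on the log2(TPM + 1) scale relative to WT, so TPM levels of GDel1 read low beside CPM.

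Hox RNA was scarce in every library. The 39 genes together held 167 and 268 counts in GDel1, 434 and 344 counts in GDel2, and 290, 312 and 372 counts in WT. Their summed level was 3.29 ± 0.297 TPM in GDel1 (SD, n = 2), 9.09 ± 2.93 TPM in GDel2 (SD, n = 2) and 6.50 ± 0.960 TPM in WT (SD, n = 3). The libraries of GDel1 lay below every WT library in this sum, and those of GDel2 overlapped with WT. In summed CPM the libraries of GDel2 held 34.2 and 24.9, above every WT library (19.3 to 21.3), and those of GDel1 held 13.4 and 13.9, below every WT library. From CPM the GDel1 sum was closer to WT (a log2 ratio of -0.55, against -0.98 from TPM), and the GDel2 log2 ratio was 0.56, against 0.48 from TPM, which was 0.11 without GDel2 replicate 1. No Hox gene reached 1 TPM in every library, and 3 reached it in any, Hoxb9 and Hoxc13 among them. In bulk RNA, fewer cells of a type and less RNA per cell cannot be told apart.

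The genes with no count in any library all lay in the Hoxb cluster, although its summed level was not the lowest of the clusters. Hoxb1 and Hoxb2, which act in the hindbrain, and Hoxb5 and Hoxb6, which act in the trunk, had 0 counts in all 7 libraries, which allows up to 3 counts or 0.160 to 0.244 CPM per library, for counting error only. A further 5 genes had 1 count in total over the 7 libraries, and these were Hoxa6, Hoxa11, Hoxb3, Hoxd3 and Hoxd12. In all, 35 of the 39 had at least 1 count, and 21 of the 39 stayed under 0.1 TPM in every library. At the other end, 9 genes had counts in all 7 libraries. The number of Hox genes with counts was 13 and 22 in GDel1, 29 to 30 in GDel2 and 20 in each WT library, whereas all genes with counts numbered 20723 and 22194 in GDel1, 21542 and 21788 in GDel2 and 21270 to 22171 in WT. GDel2 thus had more Hox genes with counts than any other library, although one of its libraries is the shallowest of the 7.

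The few genes above this floor were spread over the clusters and not confined to the early, low-numbered end. Hoxb9, a gene of the thoracic skeleton (chr11:96271330-96276595), had 0.73 and 0.85 TPM in GDel1, 2.16 and 1.14 TPM in GDel2, and 2.56, 1.86 and 1.44 TPM in WT. Hoxc13, a regulator of hair and nail keratins at the end of its cluster (chr15:102921131-102928814), had 0.99 and 0.89 TPM in GDel1, 2.35 and 1.5 TPM in GDel2, and 1.39, 0.96 and 1.45 TPM in WT. In WT the mean of Hoxb9 was above that of Hoxc13, and the libraries of both genes overlapped. Hoxc12, a neighbour of Hoxc13, had 0.380 ± 0.127 TPM in GDel1 (SD, n = 2), and Hoxb13, expressed in the tail bud and prostate, had 0.343 ± 0.150 TPM in WT (SD, n = 3). Hoxd13, a gene of digits and external genitalia, had 0.830 ± 0.184 TPM in GDel2 (SD, n = 2).

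By cluster, the summed Hoxd level was 0.145 ± 0.0919 TPM in GDel1 (SD, n = 2), 1.15 ± 0.233 TPM in GDel2 (SD, n = 2) and 0.347 ± 0.162 TPM in WT (SD, n = 3). For Hoxc it was 1.63 ± 0.0354 TPM in GDel1, 3.95 ± 0.997 TPM in GDel2 and 2.07 ± 0.337 TPM in WT, with the same n. In both clusters each GDel2 library lay above each WT library. Hoxa (0.55 ± 0.141 TPM in GDel1, 2.08 ± 0.905 TPM in GDel2, 1.76 ± 0.104 TPM in WT) and Hoxb (0.97 ± 0.0283 TPM in GDel1, 1.92 ± 0.792 TPM in GDel2, 2.33 ± 0.718 TPM in WT) overlapped between GDel2 and WT.

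Differences between groups were tested with edgeR's quasi-likelihood test on rounded expected counts, with Benjamini-Hochberg adjustment over the 15421 genes that passed a filter on low counts and an adjusted p under 0.05 as the threshold. Of the Hox genes, 9 passed that filter, among them Hoxa7, Hoxb9, Hoxb13, Hoxc4, Hoxc10, Hoxc11, Hoxc13 and Hoxd13. Hoxa7, Hoxc10 and Hoxc11 passed it only through their GDel2 libraries, so these 3 had to stand high there and their calls add no support to a count. The remaining 30 were below the filter.

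In GDel2, 5 of the 9 tested Hox genes rose and none fell, and these were Hoxd13, Hoxc10, Hoxc11, Hoxc13 and Hoxa7. GDel2 differed from WT across the transcriptome, with 33.1% of all tested genes past the threshold, 17.4% higher and 15.6% lower. Leaving aside the 3 genes that entered the test through GDel2, 2 of 6 rose, which is too few genes to set against 17.4%. No RefSeq gene model overlaps any of the 5.

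Hoxd13 (chr2:74668225-74671603) showed the change that depended least on the processing. It had 43 and 40 counts in GDel2, against 5 and 8 in GDel1 and 11, 10 and 15 in WT. Both GDel2 libraries stood above all 5 others, with 3.39 and 2.89 CPM in GDel2, 0.402 and 0.416 CPM in GDel1, and 0.810, 0.619 and 0.788 CPM in WT. The log2 fold change in GDel2 against WT was 2.08 ± 0.26 (SE), a 4.22-fold rise (adjusted p = 5.87e-04). It stayed past the threshold under every alternative tried, with adjusted p values up to 0.0149.

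Hoxc10 and Hoxc11, neighbours in the cluster that act in the lumbar region and hindlimb, rose together in GDel2. Hoxc10 (chr15:102966796-102971898) had 1.81 and 0.867 CPM in GDel2, against 0.221, 0.186 and 0.210 CPM in WT, a log2 fold change of 2.65 ± 0.61 (adjusted p = 0.0104). Hoxc11 (chr15:102954526-102956701) had 1.26 and 1.59 CPM in GDel2, against 0.368, 0.247 and 0.105 CPM in WT, a log2 fold change of 2.61 ± 0.53 (adjusted p = 0.00606). For both genes the GDel2 libraries stood apart from all WT libraries, which held 2 to 5 counts each. This separation follows from their passing the filter only through GDel2, so nothing is read from it. The calls rest on both GDel2 libraries: Hoxc10 missed the threshold without GDel2 replicate 1 (adjusted p = 0.0999) and Hoxc11 without GDel2 replicate 2 (adjusted p = 0.0582).

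Hoxa7, a gene of the thoracic region (chr6:52215623-52218573), had 1.89 and 1.16 CPM in GDel2, against 0.368, 0.247 and 0.420 CPM in WT. Its log2 fold change was 2.10 ± 0.60 (adjusted p = 0.0274). The groups did not overlap, which follows from Hoxa7 passing the filter only through GDel2. The call was lost with DESeq2 (adjusted p = 0.0546) and without any single library of GDel2 or WT (adjusted p 0.0651 to 0.171). The other 656 tested genes of chromosome 6 had a median log2 fold change of 0.51 in GDel2, and 51.2% of them were higher. The same median was 0.11 on chromosome 11 (Hoxb), -0.06 on chromosome 15 (Hoxc) and -0.04 on chromosome 2 (Hoxd). The part of the chromosome 6 shift in the Hoxa7 result was not tested.

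Hoxc13 had 8.21 and 6.14 CPM in GDel2, against 4.42, 3.65 and 5.41 CPM in WT. The lower GDel2 library was just above the highest WT library. The log2 fold change was 0.67 ± 0.22, a 1.59-fold rise (adjusted p = 0.0425). The call was lost with DESeq2 (adjusted p = 0.0968), with limma on log2(TPM + 1) (adjusted p = 0.170), and when either GDel2 library, WT replicate 1 or WT replicate 2 was left out (adjusted p 0.0584 to 0.279).

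The other 4 tested genes did not pass in GDel2. Hoxb13 had 0.710 and 0.289 CPM in GDel2, against 1.40, 0.680 and 1.10 CPM in WT, with overlap (log2 fold change -1.08 ± 0.52, adjusted p = 0.144). Hoxb9 and Hoxc4, a gene of the neck region, differed from WT by log2 fold changes of -0.16 ± 0.24 and -0.08 ± 0.41 in GDel2, less than their standard errors.

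**Figure D1:**
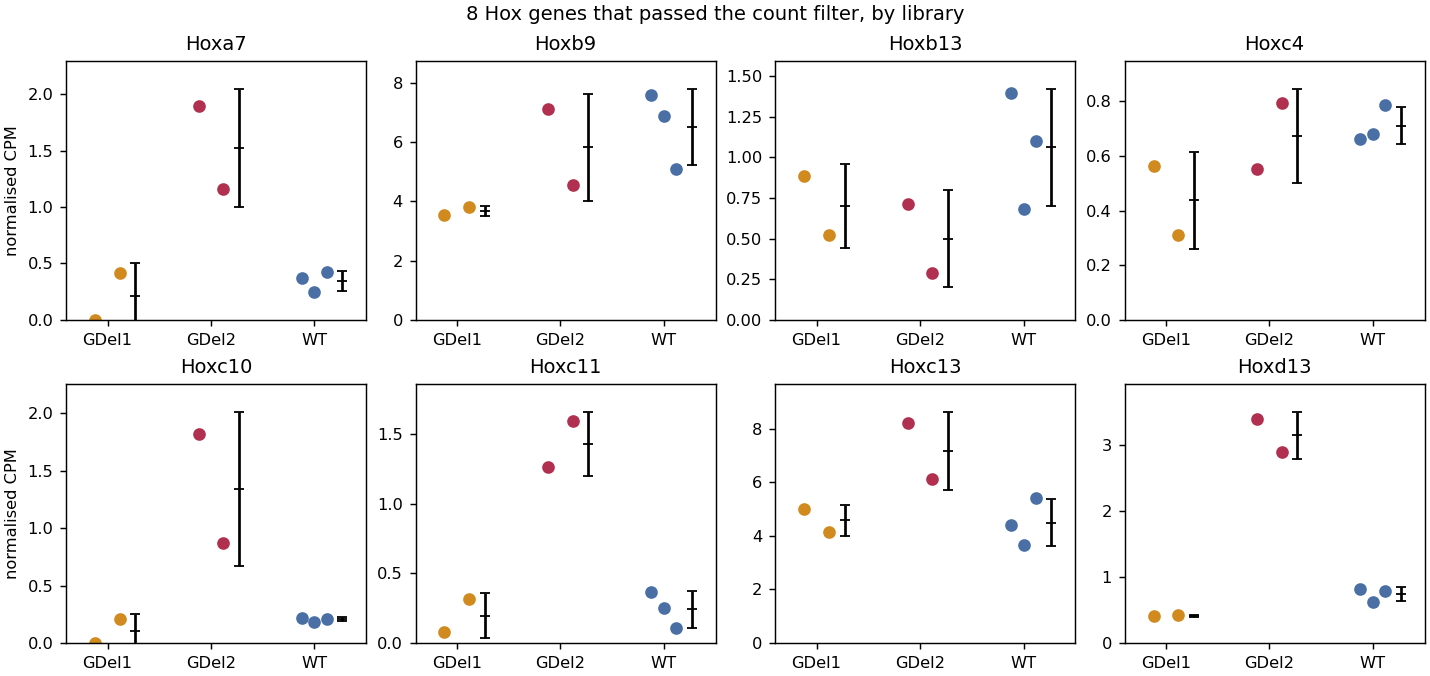
CPM, scaled by TMM, of 8 tested Hox genes in each library of GDel1, GDel2 and WT (points), with the mean and SD of each group beside them. Hoxd13, Hoxc10, Hoxc11, Hoxa7 and Hoxc13 stand higher in both GDel2 libraries than in any WT library, and Hoxb9, Hoxc4 and Hoxd13 stand lower in both GDel1 libraries than in any WT library. For Hoxc10, Hoxc11 and Hoxa7 the higher place of GDel2 follows from their passing the count filter only through GDel2.

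The Hox genes too low for the test also held more counts in GDel2. The 30 genes together had 5.44 and 4.12 CPM in GDel2, against 1.05 and 1.72 CPM in GDel1 and 1.47, 1.30 and 1.42 CPM in WT. Over the libraries of a group, 126 counts in GDel2 against 68 in WT gave a ratio of 3.41 after scaling (95% interval 2.52 to 4.65, for counting error only), while the other 12023 genes below the filter had a ratio of 1.15 (1.14 to 1.17). The ratio was 3.59 for Hoxa, 2.95 for Hoxb, 3.03 for Hoxc and 4.30 for Hoxd, and the interval for Hoxb, with 8 counts in GDel2 against 5 in WT, ran from 0.850 to 11.4. Of the 26 with counts, 12 had both GDel2 libraries above every WT library, where the same held for 12.6% of all genes below the filter, and none had both below, where that share was 5.94%. Among the 9 tested genes, both GDel2 libraries lay above every WT library for 5 (32.2% of all tested genes) and below for 1 (31%), and as 3 of those 5 entered the test through GDel2, nothing is read from this count.

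**Figure D2:**
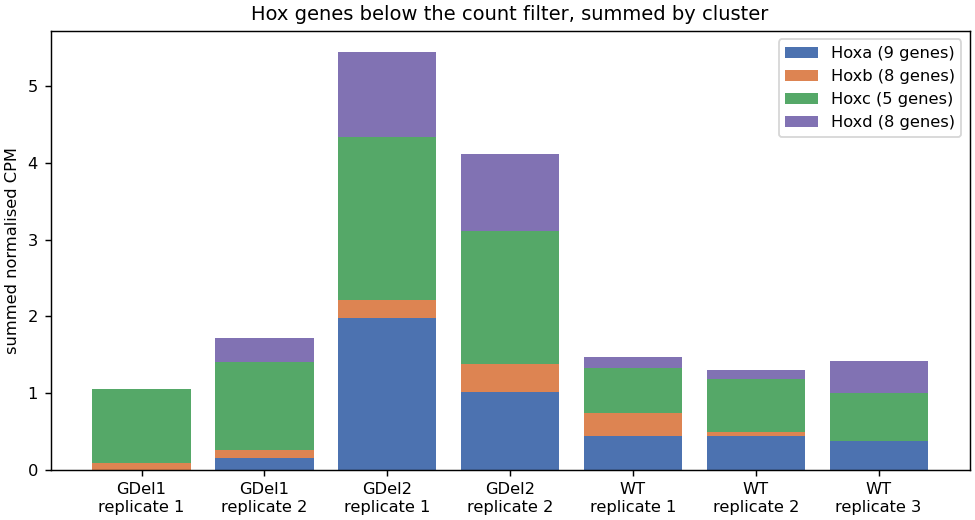
Summed CPM of the 30 Hox genes below the count filter in each library of GDel1, GDel2 and WT, with bars split by cluster. The GDel2 libraries reach 5.44 and 4.12 CPM, and the other 5 libraries lie between 1.05 and 1.72 CPM.

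These 12 genes were Hoxa4, Hoxa5, Hoxa9, Hoxa10, Hoxa13, Hoxb4, Hoxb7, Hoxc8, Hoxc9, Hoxc12, Hoxd1 and Hoxd11. Hoxc8, a gene of the thoracic skeleton and of motor neurons that serve the forelimb, had 7 and 8 counts in GDel2, against 1 and 2 in GDel1 and 1, 2 and 1 in WT. That is a ratio to WT of 6.90 (95% interval 2.20 to 28.6), and in a fit without the filter Hoxc8 was the sixth Hox gene past the threshold (adjusted p = 0.0236), where 10.8% of all genes were called higher. Hoxd11, which patterns the forearm, had 4 and 2 counts in GDel2 and none in any other library, at least 3.68-fold higher than WT with a floor of 3 counts over the WT group (without the filter, adjusted p = 0.0645). Hoxb7, a trunk gene, had 1 and 3 counts in GDel2 and none elsewhere, at least 2.45-fold higher than WT by the same floor. Hoxc9, which acts in the thoracic region, had 8 counts over GDel2 against 2 over WT, a ratio of 7.36 (95% interval 1.47 to 71.2). For Hoxa4, Hoxa5, Hoxa9, Hoxa10, Hoxb4 and Hoxc12 the interval of the ratio held 1, and for Hoxa13 it started at 1.03. Hoxd1 had 3 counts in GDel2 and none in WT, too few for a ratio. Hoxd9 had 0 and 6 counts in GDel2, against 0, 1 and 0 in WT, so its excess was in 1 library. Hoxa3, a gene of thymus and neck structures, had 7 and 3 counts in GDel2, against 3, 2 and 2 in WT, and Hoxa2, Hoxc5, Hoxc6, Hoxd4 and Hoxd8 also overlapped between GDel2 and WT. In all, 7 genes at 0 in WT had counts in GDel2 and 3 genes at 0 in GDel2 had counts in WT, each of those 3 with 1 or 2. The share over all genes was not counted for this either, so nothing is read from it.

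The promoters of the Hox genes differ in composition. Windows of 250 bases upstream of the RefSeq start (GRCm38.p6) were at hand for 22 of the 39 genes, in 24 windows. They held a median of 12.5 CG dinucleotides, against 6 over all 32851 windows, and their median GC content was 58.6%, against 52.4%. Because the study is about G-quadruplexes, each window was searched on either strand for 4 runs of at least 3 guanines with loops of 1 to 7 bases. This pattern was in 6 of the 24 Hox windows, against 16.69% of all windows, and the genes were Hoxa6, Hoxa10, Hoxa13, Hoxb1, Hoxd12 and Hoxd13. The set of all windows was not matched to the higher GC content of the Hox windows. The promoters of 3 genes are printed 5′ to 3′ on the gene's own strand, with bases that belong to the pattern in capitals (runs of C are runs of G on the opposite strand): Hoxd13, which rose in GDel2 (chr2:74667975-74668224, plus strand), Hoxb1, silent in every library (chr11:96365508-96365757, plus strand), and Hoxa7, which rose in GDel2 and has no such pattern (chr6:52218574-52218823, minus strand).
Hoxd13: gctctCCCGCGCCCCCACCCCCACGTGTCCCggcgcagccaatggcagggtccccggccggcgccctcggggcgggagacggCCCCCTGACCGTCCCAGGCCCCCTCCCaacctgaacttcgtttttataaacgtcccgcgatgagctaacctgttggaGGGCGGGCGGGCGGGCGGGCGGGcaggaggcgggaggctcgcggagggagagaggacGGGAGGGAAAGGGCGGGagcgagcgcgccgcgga
Hoxb1: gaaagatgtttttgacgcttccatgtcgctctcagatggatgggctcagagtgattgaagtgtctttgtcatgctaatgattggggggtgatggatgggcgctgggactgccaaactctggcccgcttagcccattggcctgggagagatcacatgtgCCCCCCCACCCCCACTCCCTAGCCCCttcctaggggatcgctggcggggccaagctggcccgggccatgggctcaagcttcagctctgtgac
Hoxa7: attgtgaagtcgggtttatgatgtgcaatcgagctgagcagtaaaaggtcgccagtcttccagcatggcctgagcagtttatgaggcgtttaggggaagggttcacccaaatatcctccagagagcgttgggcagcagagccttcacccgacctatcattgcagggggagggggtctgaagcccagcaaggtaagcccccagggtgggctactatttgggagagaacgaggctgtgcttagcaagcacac
The Hoxd13 window holds 31 CG dinucleotides and 74.4% GC, with the pattern on both strands, whereas the Hoxb1 and Hoxa7 windows hold 7 CG each. The pattern was present at Hoxd13, a called gene, and at Hoxb1, a silent one, and absent at Hoxa7, another called gene. The other genes called in GDel2, Hoxc10, Hoxc11 and Hoxc13, had no window, so nothing is read from this about the calls. A motif that Hox and Pbx proteins bind together, TGATTNAT on either strand, was in the windows of Hoxa2 and Hoxd11, against 2.825% of all windows. A TATA box, TATAAA on either strand, was in windows of Hoxa10, Hoxb8, Hoxd4 and Hoxd13, against 12.37% of all windows. A match describes letters only and shows neither a bound site nor a folded structure.

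In GDel1 no Hox gene passed the threshold, and the largest differences from WT were toward less RNA. Over all tested genes 0.376% passed, 0.214% as lower, so few calls were made anywhere, and 24.5% of genes and 2 of the 9 Hox genes had an unadjusted p under 0.05. Hoxb9 was among these. Both GDel1 libraries lay below every WT library for 4 of the 9, Hoxb9, Hoxc4 and Hoxd13 among them, which held for 22.6% of all tested genes, and both lay above for none of the 9, against 20.9%.

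Hoxb9 had 3.54 and 3.80 CPM in GDel1, against 7.58, 6.87 and 5.09 CPM in WT, without overlap (log2 fold change -0.81 ± 0.25, adjusted p = 0.0960). Without the filter it passed (adjusted p = 0.00709), in a fit that called 3.77% of all genes lower, and so it did with limma on log2(TPM + 1) (adjusted p = 0.0336), which called 21.1% of all genes. Hoxd13 had 0.402 and 0.416 CPM in GDel1, below each WT library (log2 fold change -0.83 ± 0.35, adjusted p = 0.224). Hoxc13, the most abundant Hox gene of GDel1, had 4.99 and 4.16 CPM in GDel1, within the WT range of 3.65 to 5.41 CPM (log2 fold change 0.01 ± 0.22), and its sign turned under TPM scaling (-0.22 on log2(TPM + 1)). For Hoxc4, Hoxc10, Hoxb13, Hoxa7 and Hoxc11 the log2 fold changes ran from -0.76 to -0.07, with adjusted p values of 0.313 to 0.968.

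Among the 30 Hox genes below the filter, GDel1 had 46 counts against 68 in WT, a scaled ratio of 1.04 (95% interval 0.702 to 1.54). By cluster, the 9 Hoxa genes had 3 counts in GDel1 against 20 in WT, a ratio of 0.231 (0.0440 to 0.780), while the 5 Hoxc genes had 34 against 31, a ratio of 1.69 (1.01 to 2.85). GDel1 replicate 1 had no count in any of the 9 Hoxa genes or the 8 Hoxd genes below the filter. In total 7 genes at 0 in GDel1 had counts in WT, and 2 genes at 0 in WT had counts in GDel1. WT has more libraries than GDel1 and the share over all genes was not counted, so nothing is read from these numbers. Of the 26 with counts, 2 had both GDel1 libraries below every WT library (Hoxa3 and Hoxa4), against 6.5% of genes below the filter, and 2 had both above (Hoxc9 and Hoxc12), against 6.61%. RefSeq extents of Hoxa3 and Hoxa4 overlap, so their reads may be shared.

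**Figure D3:**
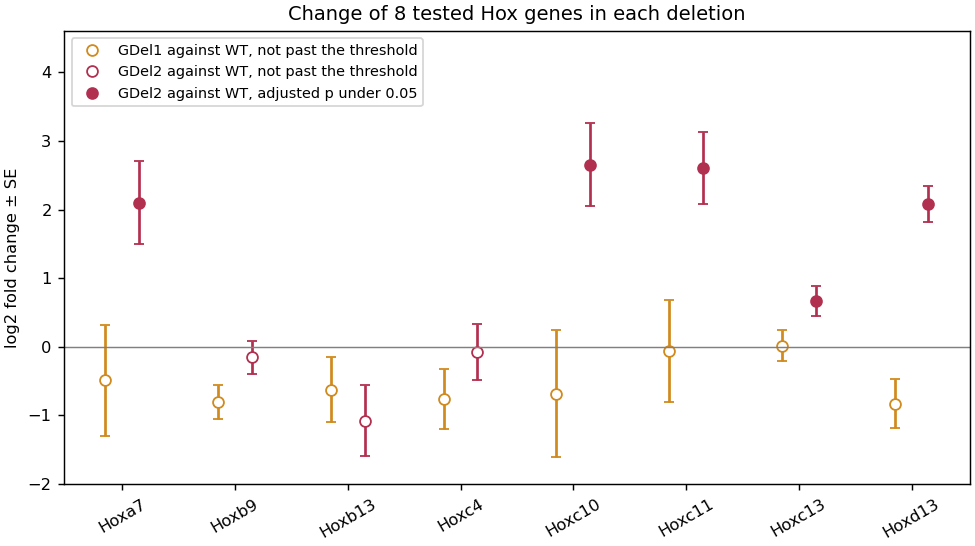
Log2 fold change with its standard error for 8 tested Hox genes in GDel1 and GDel2, each against the same WT libraries (edgeR). Filled points passed an adjusted p under 0.05: these are Hoxa7, Hoxc10, Hoxc11, Hoxc13 and Hoxd13 in GDel2, between 0.67 and 2.65, and none in GDel1.

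The 2 deletions, which carry the same genotype label, differed from each other in the Hox genes. Against GDel1, 4 of the 9 tested genes were higher in GDel2, where 14.8% of all tested genes were higher and 27.7% passed in either direction. Hoxd13 differed by a log2 fold change of 2.91 ± 0.33 (adjusted p = 4.37e-04), Hoxc10 by 3.34 ± 0.75 (adjusted p = 0.0118), Hoxc11 by 2.67 ± 0.61 (adjusted p = 0.0120) and Hoxa7 by 2.59 ± 0.72 (adjusted p = 0.0282). The last 3 of these entered the test through GDel2 alone. Hoxc10 and Hoxa7 missed the threshold without GDel2 replicate 1 (adjusted p = 0.0866 and 0.147), Hoxa7 also without GDel2 replicate 2 (adjusted p = 0.0574), and Hoxc11 without GDel2 replicate 2 (adjusted p = 0.0710) or without both GDel1 replicate 1 and GDel2 replicate 2, the libraries of highest mitochondrial share (adjusted p = 0.0769). Hoxc13 differed by 0.65 ± 0.24 (adjusted p = 0.0739) and passed under TPM scaling. With log2(TPM + 1) the median of all genes in this comparison was 0.24 and 24.3% of all genes passed. With log2(TPM + 0.1) these were 0.36 and 25.5%. Of the 26 genes with counts below the filter, 16 had both GDel2 libraries above both GDel1 libraries, against 14.1% of all genes below the filter, and none had both below, against 10.8%. Among the 9 tested genes this order held for 7 (29.9% of all tested genes), 3 of them in the test only through GDel2, so nothing is read from this count. With GDel1 and GDel2 taken as 1 group of 4, no Hox gene and no other tested gene passed (0% of all tested genes with edgeR, 6.29% with DESeq2, in which 6 of the 9 Hox genes had no adjusted p and the other 3 did not pass). At an unadjusted p under 0.05 there were 2930 genes, 1 Hox gene among them.

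Lists of genes that act with Hox genes or on them were counted in the same fits. In GDel1 no member of any list passed. Of the 9 TALE cofactors, 1 rose and 4 fell in GDel2, where 17.4% of all tested genes rose and 15.6% fell, with a median log2 fold change of -0.51 against 0.01 over all genes. Meis2, which binds DNA with Hox and Pbx proteins, had 4.73 and 6.36 CPM in GDel2, against 54.3, 43.1 and 48.9 CPM in WT (log2 fold change -3.13 ± 0.17, adjusted p = 9.81e-06). Pknox2, of a related family, fell by 2.20 on the log2 scale, and Pbx2, a partner of Hox proteins, fell by 0.38. Pbx3 rose, with 10.02 and 12.2 CPM in GDel2 against 4.93, 5.69 and 5.36 CPM in WT (log2 fold change 1.06 ± 0.15, adjusted p = 0.00101).

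Of the 6 ParaHox and caudal genes, 2 were tested and 1 fell in GDel2, beside 15.6% of all tested genes. Cdx2, a caudal factor that activates central Hox genes and a trophoblast regulator, had 0.395 and 0.361 CPM in GDel2, against 1.91, 1.86 and 1.21 CPM in WT (log2 fold change -2.10 ± 0.39, adjusted p = 0.00403). Cdx1 had a log2 fold change of -0.35 in GDel2 (adjusted p = 0.144) and -0.70 in GDel1 (adjusted p = 0.0675). Of 15 retinoic acid genes, 10 were tested, 4 rose and 2 fell in GDel2 (17.4% and 15.6% over all tested genes), with a median log2 fold change of 0.33. Stra8, a germ cell gene induced by retinoic acid, had 3.39 and 2.96 CPM in GDel2, against 0.0736, 0.309 and 0.210 CPM in WT (log2 fold change 3.91 ± 0.45, adjusted p = 3.51e-04). Crabp1 and Crabp2, which carry retinoic acid in the cytoplasm, rose by log2 fold changes of 1.28 and 1.17, and Dhrs3, which reduces retinal and is induced by retinoic acid, fell by 0.91 on the log2 scale.

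Of the 29 Polycomb genes, which encode the repressors of the clusters, 6 rose and 5 fell in GDel2, near the 33.1% of all tested genes that passed, with a median log2 fold change of 0.01. Ezh2, the methyltransferase of PRC2, rose by a log2 fold change of 0.78, while Suz12, a core subunit of the same complex, had 338 and 358 CPM in GDel2, against 604, 641 and 619 CPM in WT, and fell by 0.83 on the log2 scale. Phc2, a PRC1 subunit, fell by 0.93 on that scale. Of 12 trithorax genes, which oppose Polycomb, 1 rose and 1 fell in GDel2, beside 17.4% and 15.6% of all tested genes. Ash2l rose by a log2 fold change of 0.37 and Wdr5 fell by 0.47, and the list had a median of -0.33.

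Of the 19 tested genes that flank the clusters, 7 rose and 1 fell in GDel2, beside 17.4% and 15.6% of all tested genes. Their median log2 fold change was 0.18. Among the 7, Hibadh, Tax1bp1, Skap2 and Snx10 flank Hoxa on chromosome 6, where 51.2% of the other tested genes were higher in GDel2. The part of that chromosome 6 shift in these genes was not tested. Hibadh, near Hoxa13, had 133 and 153 CPM in GDel2, against 71.98, 71.8 and 72.7 CPM in WT. Mtx2, beside Hoxd, rose by a log2 fold change of 0.84 and Ttll6, near Hoxb13, by 1.83, while Calcoco1, near Hoxc13, fell by 0.72. Evx2, at the end of the Hoxd cluster, had no count in any library, and Evx1, at the end of Hoxa, was below the filter. Of 18 non-coding transcripts of the clusters found in the tables, 11 had no count anywhere. The miRNA genes Mir10a, Mir10b, Mir196a-1, Mir196a-2, Mir196b and Mir615 were among them. Whether these libraries could capture RNA as short as miRNA was not tested, so no silence is read from their lack of counts. Halr1, a non-coding transcript beside the Hoxa cluster, had 12.6 and 6.82 CPM in GDel1, 19.3 and 20.4 CPM in GDel2 and 15.1, 15.0 and 13.8 CPM in WT, and did not pass in GDel1 or GDel2 (adjusted p = 0.140 and 0.139), and it was higher in GDel2 against GDel1 (log2 fold change 1.06 ± 0.24, adjusted p = 0.0125). Gm53, between Hoxb13 and Hoxb9, fell in GDel2, with 14.4 and 12.1 CPM in GDel2 against 23.8, 21.8 and 24.5 CPM in WT (log2 fold change -0.82 ± 0.13, adjusted p = 0.00162).

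Markers of other cell types went in both directions in GDel2, where 17.4% of all tested genes rose and 15.6% fell. The 6 neuroectoderm markers summed to 13.6 to 15.0 TPM in GDel1, 41.3 to 42.1 TPM in GDel2 and 14.6 to 19.0 TPM in WT, and both tested members, Tubb3 and Sox1, rose in GDel2. The 7 mesendoderm markers summed to 0.94 to 1.24 TPM in GDel1, 3.88 to 4.41 TPM in GDel2 and 1.30 to 1.44 TPM in WT, and both tested members, Eomes and Mixl1, rose. The 5 primitive endoderm markers summed to 0.28 to 0.42 TPM in GDel1, 0.53 to 1.35 TPM in GDel2 and 0.28 to 0.59 TPM in WT. Of their 2 tested members, 1 rose in GDel2. The 9 fibroblast markers, listed because feeder cells use Hox genes, summed to 0.17 to 0.28 TPM in GDel1, 1.48 to 2.27 TPM in GDel2 and 0.44 to 0.76 TPM in WT. Of these 9, 5 had no count in any library, Col1a1 did not pass (log2 fold change -0.41 in GDel2) and Thy1 rose (1.42). Those at 0 were Col3a1, Postn, Dcn, Twist2 and Prrx1. The 5 trophoblast markers summed to 0.31 to 0.37 TPM in GDel1, 0.25 to 0.35 TPM in GDel2 and 0.72 to 1.10 TPM in WT. Both tested members, Cdx2 and Gata3, fell in GDel2. The part of such cells in the Hox results was not tested.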

How the data were processed

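RNA of 7 libraries was analysed. Each has a table of RSEM gene results. The deposited expected counts are estimated reads per gene, not scaled for depth. The deposited TPM values correct for effective length and sum to the same total in each library. FPKM values and gene lengths, also deposited, were not used. Tools named by the submitters' processing notes are HiC-Pro, deepTools, Bowtie2, STAR and RSEM, and the build is mm10. The roles of the tools, the strand setting and the release of the annotation are not given here by any source. All 273 Hox counts were exactly whole.

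Expected counts were rounded. The filterByExpr function with 3 groups (minimum count 10, minimum total 15) kept 15421 genes with 99.88% of counts. R 4.3.3 and edgeR 4.0.16 (TMM, robust quasi-likelihood test, 2-sided) fitted 3 groups, and GDel1 and GDel2 as 1 group in a second fit. Alternatives used DESeq2 1.42.0, limma 3.58.1 on log2(TPM + 1) or log2(TPM + 0.1), size factors, filters, a replicate block and left-out libraries. Adjusted p values are edgeR's unless named. The edgeR comparison of GDel2 with WT was also tested on simulated data. Ratios of summed counts carry exact 95% intervals. Positions and promoters are RefSeq's (GRCm38.p6), matched by symbol. The rule for named genes took every Hox gene and, from each other list, up to 4 members past the threshold by size of change, failing these the 2 of highest TPM; others were named after their values were seen, and some genes that the rule takes are not reported here. The Hox set and the lists were chosen with earlier results of these data known.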

Additional observations from a re-analysis of the deposited data

Results flagged for a closer look

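The effects of the 2 deletions on 4 Hox genes differed by a test of the difference itself (edgeR, GDel2 against GDel1, which carry the same genotype label). The log2 difference was 2.91 for Hoxd13 (adjusted p = 4.37e-04), 3.34 for Hoxc10 (adjusted p = 0.0118), 2.67 for Hoxc11 (adjusted p = 0.0120) and 2.59 for Hoxa7 (adjusted p = 0.0282). Hoxc10, Hoxc11 and Hoxa7 passed the count filter only through their GDel2 libraries, so standing high in GDel2 was a condition of their being tested.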

How the results depend on the processing

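The Hoxd13 rise in GDel2 kept its direction and stayed past the threshold under every alternative. The count of Hox genes past the threshold in GDel2, 5 as reported, was 3 with DESeq2 and 3 to 4 when a WT library was left out. All of these were rises. All genes passed at 33.1% as reported, 26.1% with DESeq2 and 21.9% to 22.4% without a WT library. The Hox count also changed when a GDel2 library was left out, which leaves 1 in the group. In GDel1 it was 0, against 2 with no filter, with limma on log2(TPM + 1) and with limma on log2(TPM + 0.1), and 0 to 2 when libraries were left out (2 without the 2 libraries of high mitochondrial share). All genes passed at 0.376% as reported, 8.58% with no filter, 21.1% and 22.9% with limma and 27.6% without those 2 libraries. With DESeq2 none of the 9 had an adjusted p in GDel1. For GDel2 against GDel1 it was 4, and 2 to 6 when libraries were left out. For both deletions as 1 group it was 0, with 0% of all tested genes past the threshold. It was 1 when the mean of GDel1 and GDel2 was taken from the fit with 3 groups, where 20.4% of all genes passed. The log2 ratio of summed Hox TPM to WT was -0.98 in GDel1 (-1.08 to -0.86 with 1 library left out), against -0.55 from summed CPM, and 0.48 in GDel2 (0.11 to 0.78), against 0.56 from summed CPM. Genes called undetected numbered 4 at 0 counts and 21 at under 0.1 TPM. The causes were not tested.

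The replicate block takes libraries with the same number as a pair. It gave 2 calls in GDel2 against WT, Hoxd13 and Hoxc13, where 14.9% of all genes passed. Hoxc11 was not among them (adjusted p = 0.0547). In GDel2 against GDel1 it gave 2 calls, where 14.5% of all genes passed. Hoxc4 in GDel2 had a log2 fold change of 0.012 under the block. Deviations of libraries with the same number had correlations of -0.32 (GDel1 and GDel2), 0.12 and -0.02 (GDel1 and WT) and -0.10 and -0.11 (GDel2 and WT). The 2 libraries of a deletion group deviate from its mean in mirror image, so these values cannot show whether the numbers pair libraries.

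Signs turned only for log2 fold changes that did not pass. With libraries left out, GDel1 values ran from -0.12 to 0.18 for Hoxc13, -1.41 to 0.47 for Hoxc11, -4.64 to 0.042 for Hoxc10 and -5.38 to 0.28 for Hoxa7, GDel2 values from -0.53 to 0.15 for Hoxb9 and -0.37 to 0.13 for Hoxc4, and Hoxb13 in GDel2 against GDel1 from -1.23 to 0.43. With limma, Hoxc13 in GDel1 was -0.22 and -0.38 (pseudocounts 1 and 0.1). A lone library left in a group was assumed to vary like the others. Depth limits most members, as 30 of 39 were too low to test.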
